A study of Saccharomyces cerevisiae with 10 samples.

Results

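The genomic regions described here are ATAC-seq peaks of budding yeast that were called on Day 10 or Day 28 of a laboratory evolution experiment and on none of Day 0, Day 3 and Day 7. The deposited name of each merged peak lists the day peaks it was built from (whether the libraries of a day were pooled for calling is not given in the sources used here), and these names, not counts or genes, assigned the peaks. The rule selected 362 of the 3515 merged peaks (10.3%). Of these, 162 were called on both later days, 163 on Day 10 alone and 37 on Day 28 alone. Peaks called in all numbered 2947 (Day 0), 2952 (Day 3), 2946 (Day 7), 3399 (Day 10) and 3187 (Day 28). Both later days thus had more calls than any earlier day, and Day 10 had the most. The part of these totals in the membership and in the split of 163 against 37 was not tested. Since the members were chosen by the calls of Day 10 and Day 28 against the earlier days, all values that set later against earlier days are a description of that choice and were not tested.

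The populations descend from strain WP35, a W303 MATalpha haploid with the genotype HO::HIS3::pGAL1-YFP, in which the galactose-inducible GAL1 promoter drives a yellow fluorescent protein at the HO locus (the study's methods name HIS5 as the marker there). Cells with low YFP were sorted each day through Day 7 and then grew without selection to Day 28, and the study asked how chromatin compaction changed over that time. Frozen stocks of Day 0 (before selection), Day 3, Day 7, Day 10 and Day 28 of 1 evolution replicate, L3, were revived, and every culture was grown in synthetic complete medium with 0.1% mannose and 0.2% galactose. Each day is represented by 2 libraries, so that p-values measure only the spread between these libraries and not that between independently evolved populations.

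In ATAC-seq the Tn5 transposase cuts DNA that is not wrapped in nucleosomes or otherwise covered, and the cut fragments are sequenced. In yeast the most open sites are the nucleosome-depleted regions upstream of genes, where transcription factors and RNA polymerase assemble, while the bodies of genes are mostly covered by regularly spaced nucleosomes. A peak is called where reads pile up above the local background, and a site below that line can still hold reads.

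The sequences below show both kinds of site found among the 362 peaks, from RefSeq's R64 assembly on the plus strand. The first 4 are the peak with the highest ratio of later over earlier counts among those called on both later days (TIR4), on Day 10 alone (ECM22) and on Day 28 alone (CNA1), and the shorter of the FLO10 peaks, and all of them lie inside coding sequence with no gene start or end in the peak. The next 3 are the peaks with the highest such ratio among those that cover a gene start, one from each class, and capitals mark the annotated first codon. For peaks longer than 220 bases the central 220 bases are printed.
TIR4 (chrXV:345410-345629): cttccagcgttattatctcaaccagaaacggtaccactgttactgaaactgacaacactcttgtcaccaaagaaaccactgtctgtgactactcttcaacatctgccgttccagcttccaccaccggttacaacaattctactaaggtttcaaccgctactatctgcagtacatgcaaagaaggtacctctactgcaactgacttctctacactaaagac
FLO10 (chrXI:648165-648384): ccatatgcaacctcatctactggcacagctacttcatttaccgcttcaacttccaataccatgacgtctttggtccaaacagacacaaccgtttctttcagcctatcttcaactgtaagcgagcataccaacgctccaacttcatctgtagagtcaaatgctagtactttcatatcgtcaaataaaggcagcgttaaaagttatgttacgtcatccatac
ECM22 (chrXII:600627-600846): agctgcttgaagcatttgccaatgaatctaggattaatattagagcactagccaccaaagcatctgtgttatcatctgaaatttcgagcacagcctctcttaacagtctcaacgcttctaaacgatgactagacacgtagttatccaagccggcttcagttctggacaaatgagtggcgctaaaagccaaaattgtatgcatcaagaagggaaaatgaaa
CNA1 (chrXII:1004527-1004707): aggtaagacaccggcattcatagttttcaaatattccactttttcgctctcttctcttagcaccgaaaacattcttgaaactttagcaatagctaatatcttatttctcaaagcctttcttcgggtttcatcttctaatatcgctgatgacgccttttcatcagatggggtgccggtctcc
DBP8 (chrVIII:442080-442299): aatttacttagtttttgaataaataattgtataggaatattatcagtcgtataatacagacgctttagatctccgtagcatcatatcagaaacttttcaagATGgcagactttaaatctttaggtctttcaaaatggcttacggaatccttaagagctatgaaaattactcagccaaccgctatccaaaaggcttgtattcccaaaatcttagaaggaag
ORC3 (chrXII:140930-141148): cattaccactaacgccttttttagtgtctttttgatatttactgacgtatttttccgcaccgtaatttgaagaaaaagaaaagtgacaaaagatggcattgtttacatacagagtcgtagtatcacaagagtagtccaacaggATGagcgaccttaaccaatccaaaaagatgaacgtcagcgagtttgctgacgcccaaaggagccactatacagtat
OGG1 (chrXIII:151747-151918): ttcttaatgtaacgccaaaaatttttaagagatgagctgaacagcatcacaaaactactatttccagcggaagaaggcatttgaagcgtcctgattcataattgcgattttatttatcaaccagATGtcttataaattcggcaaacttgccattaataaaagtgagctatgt

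Depth allowed all of these weak peaks to be counted. The libraries held from 4748625 to 18693542 counts in peaks, and the lowest count of any of the 362 peaks in any library was 86. The 362 peaks took between 1.31% and 2.15% of a library's counts on the earlier days and between 2.13% and 2.86% on the later days, so that only the first Day 0 library reached into the later range. The spread between replicates exceeded counting error throughout, with a chi-square statistic per peak from 6.18 on Day 7 to 25.8 on Day 0. Both Day 28 libraries, both Day 3 libraries and 1 Day 10 library were sequenced in more than 1 run, which cannot be told apart from the day for Day 3 and Day 28.

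The 362 peaks were short and low but not empty before Day 10. Their median length was 324.5 bp, with a range of 167 to 1376 bp, against 868 bp over all merged peaks, and it was 412 bp for peaks called on both later days, 277 bp for Day 10 alone and 196 bp for Day 28 alone. The median normalized count per peak (the raw count scaled by the size factor of its library) was 630.2 and 543 (Day 0), 551 and 524 (Day 3), 456 and 468 (Day 7), 669 and 769 (Day 10), and 730.5 and 633 (Day 28). Reads were thus present on days on which no peak was called, and Day 7 held the lowest medians. By day means, 270 of the 362 peaks (74.6%) had their lowest level on Day 7, against 30.6% of all merged peaks, while 237 had their highest level on Day 10 and 91 on Day 28. The first Day 0 library stood close to the second Day 28 library.

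**Figure D1:**
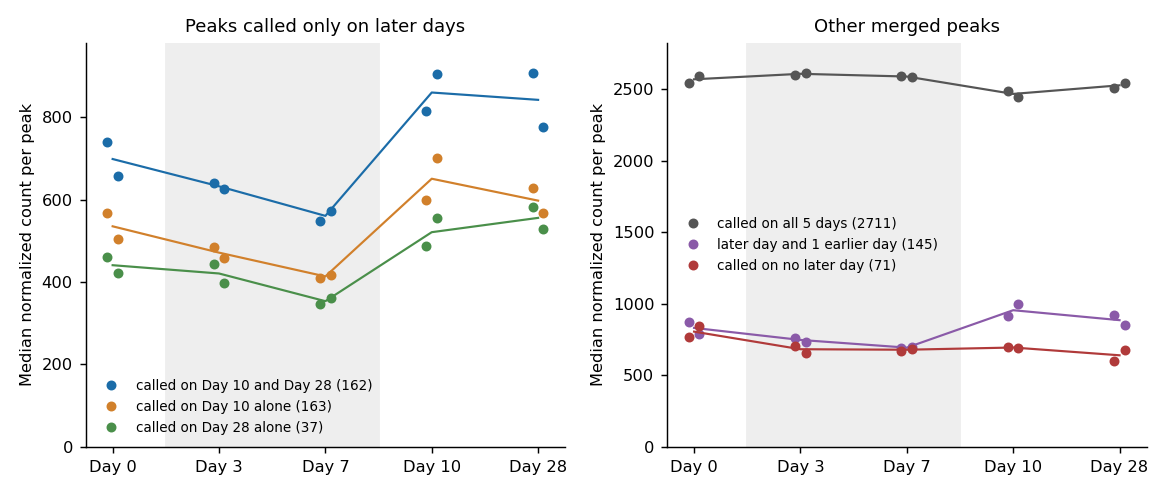
Median normalized count per peak (y axis) in each library (points, 2 per day; lines join day means) on the 5 days, which are equally spaced on the x axis; the grey band covers Day 3 and Day 7, the sampled days under selection. On the left, all 3 classes of later-day peaks are lowest on Day 7 (456 and 468 over all 362); on the right, peaks called on all 5 days lie between 2443 and 2615 and peaks called on no later day between 602 and 845.

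Later over earlier counts, the log2 ratio of the mean of the 4 later to the mean of the 6 earlier libraries, had a median of 0.42 over the 362 peaks and ranged from -0.36 to 1.43. The median over all merged peaks was -0.0015. It was 0.46 for the peaks called on both later days, 0.40 for Day 10 alone and 0.31 for Day 28 alone. In 150 of the 362 peaks (41.4%) all 4 later libraries lay above all 6 earlier ones, against 13.5% of all merged peaks, and the rule used this contrast. At the other end, 21 of the 362 had a ratio below 0 and 27 had a Day 0 mean above both later day means. The 145 peaks just outside the rule, called on a later day and on 1 earlier day, had a median ratio of 0.27, and 33 of them (22.8%) had all later libraries above all earlier ones.

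These levels depended on the scaling. Across all merged peaks the ratio fell with peak abundance (Spearman correlation -0.71 over 3515 peaks that share the same libraries), and the 362 peaks were among the least abundant, with a median mean count of 603 against 1914. Loess normalization on peak abundance reduced their median ratio to 0.095 and the number with all later above all earlier libraries to 60 (16.6%, against 11.1% of all merged peaks). Without the first Day 0 library that number was 230 (63.5%, against 21.8% of all merged peaks).

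More of the 362 peaks lay outside promoters than of the other merged peaks. In the deposited annotation 205 (56.6%, 95% Wilson interval 51.5% to 61.6%, counting error only) were at promoters, 109 (30.1%) at transcription termination sites, 47 (13.0%) in exons and 1 was intergenic. Over all merged peaks promoters made up 85.4%, termination sites 10.7% and exons 3.24%. The 71 peaks called on no later day, which are also short and weak (medians of 261 bp and of 716 normalized counts), were at promoters in 66.2% of cases, at termination sites in 23.9% and in exons in 7.04%. Of the 114 merged peaks annotated to exons, 47 were thus among the 362.

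Placed against RefSeq genes by their midpoints, 197 of the 362 peaks (54.4%) lay inside a protein-coding gene, against 33.2% of all merged peaks and 35.2% of those called on no later day. A further 95 (26.2%) lay between genes that point the same way (tandem), 44 (12.2%) in divergent intergenic regions, where the genes on both sides start and run away from each other, and 26 (7.18%) in convergent ones, between gene ends. A total of 134 (37.0%) covered the start of a gene, against 75.2% of all merged peaks and 23.9% of those called on no later day. With each gene divided into 3 equal parts, 121 of the 197 (61.4%, against 40.7% of all merged peaks inside genes) had their midpoint in the part at the 3' end, 30 in the middle part and 46 in that at the 5' end.

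Peaks lying in a gene with neither its start nor its end inside were rare in the data and mostly of this kind. There were 166 of them among the 3515 merged peaks (4.72%), and 122 (73.5% of the 166) belonged to the 362. Another 15 were called on a later day and 1 earlier day, 12 on no later day, 8 on all 5 days and the remaining 9 on other combinations. The median normalized count of the 122 was 493 and 433 (Day 0), 451 and 487 (Day 3), 325 and 333 (Day 7), 540.1 and 702 (Day 10), and 631 and 554 (Day 28). All 4 later medians were above the 6 earlier ones, and the Day 7 pair stood apart below the rest.

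**Figure D2:**
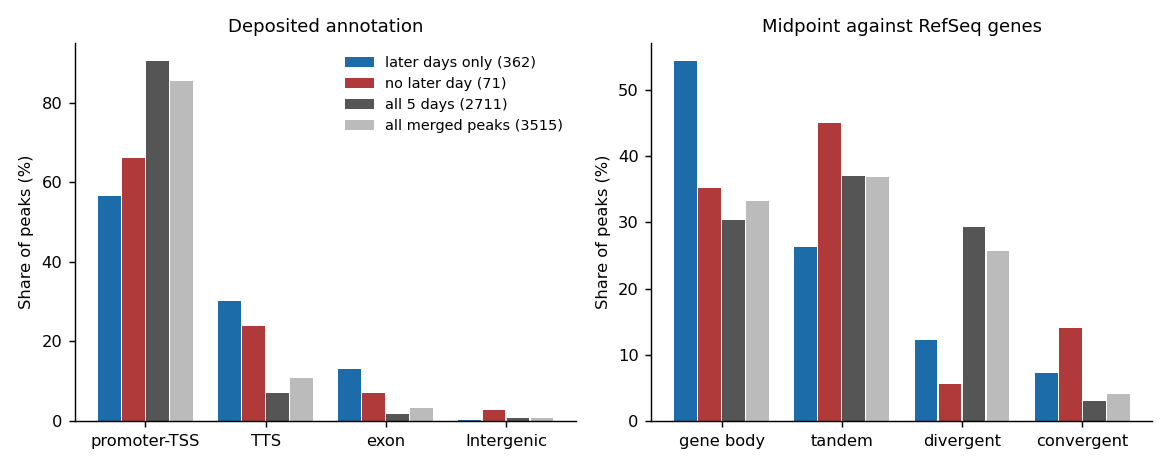
Share of peaks (y axis, percent) by deposited annotation (left) and by the position of the peak midpoint against RefSeq genes (right) for 4 sets of peaks, with their numbers in the legend. Later-day peaks are at promoters in 56.6% and inside genes in 54.4% of cases, against 85.4% and 33.2% of all merged peaks.

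By placement, the log2 ratio of later over earlier counts had a median of 0.50 for the peaks inside genes, 0.37 for convergent, 0.35 for divergent and 0.31 for tandem ones, against medians from -0.06 to 0.04 in the same classes of all merged peaks. In 99 of the 197 peaks inside genes (50.3%) all later libraries were above all earlier ones, as in 31 of 95 tandem ones (32.6%), 14 of 44 divergent ones (31.8%) and 6 of 26 convergent ones (23.1%). The shares over all merged peaks of these classes were 17.1%, 12.8%, 11.3% and 6.38%. Base composition moved along with this. The median GC content was 41.7% inside genes and 35.2% in tandem regions, and the ratio correlated with GC content over the 362 peaks (Spearman 0.36; the peaks share their libraries), with -0.12 over all merged peaks. The part of base composition in these ratios was not tested.

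**Figure D3:**
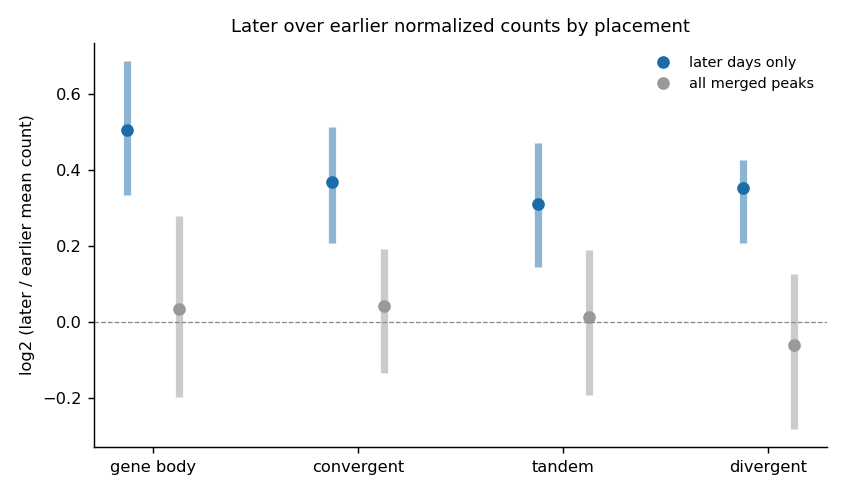
Log2 ratio of the mean of the 4 later to the mean of the 6 earlier libraries (y axis, deposited normalized counts) by placement of the peak; points are medians and bars run from the lower to the upper quartile over peaks. The later-day peaks lie above 0 in each class with the highest median, 0.50, inside genes; the ratio is what the rule selected on.

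The highest ratios belonged to peaks inside genes. The largest, 1.43, was that of a peak called on both later days in the last part of TIR4, which encodes a cell wall mannoprotein (chromosome XV, 345286 to 345753). Its normalized counts were 507 and 328 (Day 0), 457 and 541 (Day 3), 207 and 185 (Day 7), 831 and 1156 (Day 10), and 1230.2 and 764 (Day 28). The Day 10 and Day 28 libraries were all above the highest earlier one, and both Day 7 libraries were the lowest. The peak is annotated to the termination site of the neighbouring gene TIR2, although it lies within TIR4.

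FLO10, which encodes a lectin-like cell wall protein that lets cells adhere to each other, held 2 of the peaks called on both later days, both within its coding sequence. For the shorter one (chromosome XI, 648164 to 648384, ratio 1.11) the pattern was clear in each library. The libraries gave 196 and 174 (Day 0), 254 and 303 (Day 3), 92.9 and 108 (Day 7), 339 and 482 (Day 10), and 420.1 and 385 (Day 28). The longer one, from 646963 to 647454 with a ratio of 0.98, had 474 and 385 (Day 0), 565 and 641 (Day 3), 302 and 309 (Day 7), 787 and 925 (Day 10), and 1041 and 771 (Day 28). In both, the later libraries lay above all earlier ones and the earlier days were themselves unequal, with Day 3 high and Day 7 low. LRE1, whose product is a regulator linked to cell wall maintenance, had a peak near its 3' end (chromosome III, 37132 to 37387, ratio 1.03). Counts were 378 and 268 (Day 0), 342 and 389.8 (Day 3), 153 and 159.9 (Day 7), 509 and 673 (Day 10), and 646 and 475 (Day 28). Here too Day 7 was lowest and no later library fell below an earlier one.

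Among the peaks called on Day 10 alone, the highest ratio (1.19) was in the coding sequence of ECM22, a transcription factor of sterol synthesis genes (chromosome XII, 600559 to 600913). Normalized counts stood at 362 and 256 (Day 0), 296 and 319.5 (Day 3), 188 and 189.8 (Day 7), 525 and 770.5 (Day 10), and 623 and 537 (Day 28). Its Day 28 libraries were also above all earlier libraries, although no peak was called on that day. The next was a peak in APC1, a subunit of the anaphase-promoting complex (assigned to YNL170W, ratio 0.91). It was followed by one at the end of the transposon gene YDR261C-D (assigned to YDR261C-C, 0.89) and one in PMT6, a protein O-mannosyltransferase (0.88). In the YDR261C-D peak 20.3% of its 100-base windows occur elsewhere in the genome, so its reads cannot be assigned to this copy with certainty.

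Of the peaks called on Day 28 alone, the highest ratio (1.04) was near the 3' end of CNA1, a catalytic subunit of the phosphatase calcineurin (chromosome XII, 1004527 to 1004707). Its libraries held 239 and 231 (Day 0), 269.7 and 276 (Day 3), 132 and 147 (Day 7), 361 and 457 (Day 10), and 503 and 453 (Day 28). The Day 10 libraries already exceeded all earlier ones, so the later call on this site did not mark the day on which its counts first stood apart. The others were in TOR2, a growth-controlling kinase (ratio 0.92), in ADE2, an enzyme of purine synthesis (0.91), and in MRX6, which encodes a mitochondrial protein (0.89).

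Not every peak with a later call had more reads on later days. The lowest ratio, -0.36, was at the start of CBC2, the small subunit of the nuclear cap-binding complex (chromosome XVI, 212044 to 212243), called on Day 10 alone. Its normalized counts were 853 and 1021 (Day 0), 913 and 712 (Day 3), 1019 and 994 (Day 7), 722 and 700.4 (Day 10), and 702 and 741 (Day 28). The later libraries lay below all earlier ones but the second Day 3 library. The lowest among peaks called on both later days was the divergent region next to ROM1, an exchange factor of the GTPase Rho1 (chromosome VII, 627281 to 627632, ratio -0.33). The libraries gave 1250.2 and 1284 (Day 0), 1081 and 881 (Day 3), 1095 and 1087 (Day 7), 967 and 847 (Day 10), and 769 and 955 (Day 28). Its highest values were on Day 0. The next lowest were the start of CHP1 (-0.12, called on both days), a convergent site beside ILT1 (-0.24, Day 10 alone), and for Day 28 alone the sites of YAL056C-A (-0.23) and of OKP1, a kinetochore protein (-0.22).

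**Figure D4:**
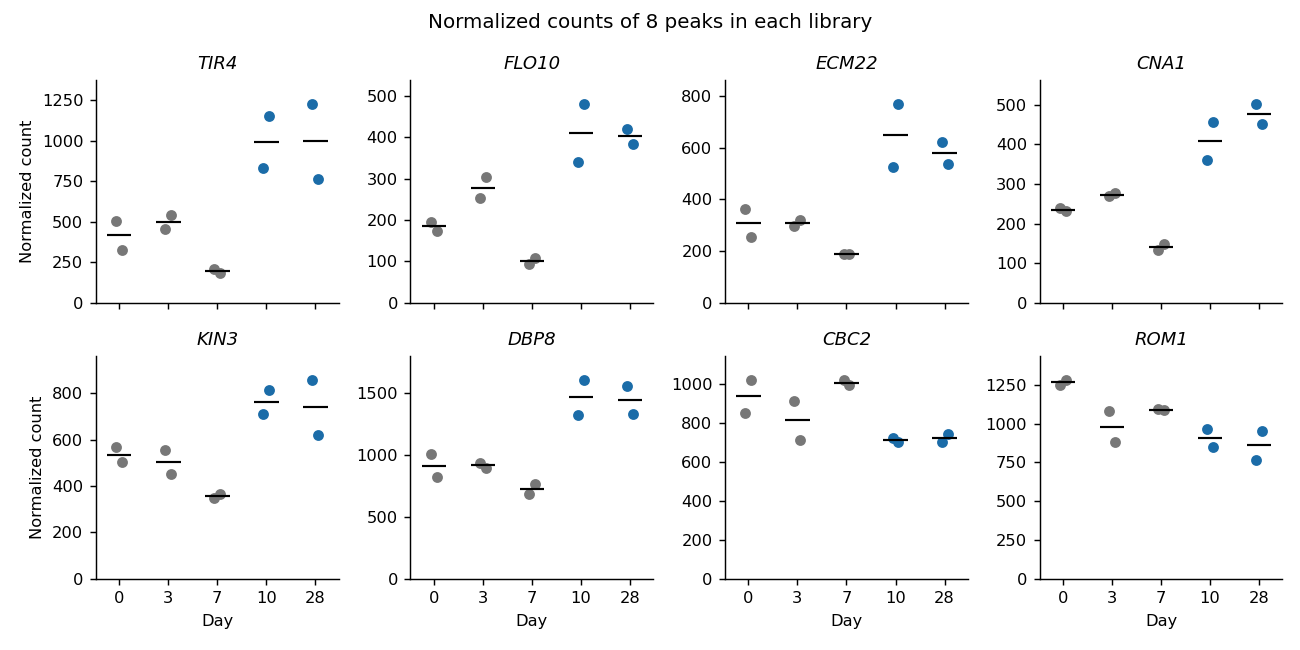
Normalized counts (y axis, starting at 0 and scaled per panel) of 8 peaks in each of the 10 libraries by day; points are libraries, horizontal lines the mean of the 2 libraries, grey for days without and blue for days with calls in this set. The peaks in TIR4, FLO10 (the shorter one), ECM22 and CNA1 and at the starts of KIN3 and DBP8 are higher in all later libraries, while those at CBC2 and ROM1, with ratios of -0.36 and -0.33, are not.

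Changes among the earlier days could be tested, since no member was called on any of them and the rule did not use their differences. It did require each of these days to miss the calling line. A peak that rose over that line by Day 3 or Day 7 was thus left out, while the background over all merged peaks has no such limit. The part of this limit in the shares below was not tested. From Day 0 to Day 3, 24 of the 362 peaks changed with edgeR's quasi-likelihood test at an adjusted p under 0.05, of which 3 rose (background over all merged peaks 9.59%) and 21 fell (background 8.99%). Both shares, 0.829% and 5.80%, were below the background. Their median log2 fold change was -0.14, against -0.02 over all merged peaks. The peaks that rose were the longer FLO10 peak (log2 fold change 0.47, standard error 0.16, adjusted p = 0.0301), that at YDR261C-D (0.77, standard error 0.28, adjusted p = 0.033) and one in YBL113C near the end of chromosome II (0.53, standard error 0.19, adjusted p = 0.0352). The largest falls were beside GAT3 (-0.57, adjusted p = 0.0168), at the start of ETP1 (-0.55, adjusted p = 0.00282) and at the end of ECM23 (-0.47, adjusted p = 0.0115). With 1 library left out, the rises ranged from 0.33 to 0.61 for FLO10, 0.19 to 1.14 for YDR261C-D and 0.41 to 0.64 for YBL113C. The falls ranged from -0.67 to -0.50 for GAT3, -0.64 to -0.45 for ETP1 and -0.65 to -0.27 for ECM23. Each of these calls was lost in at least 1 such fit.

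The direction of these early changes turned with the scaling. After loess normalization on abundance 12 rose (background 7.03%) and 3 fell (background 6.09%), with a median log2 fold change of 0.012, and 5 of the 24 were called again in the same direction. With TMM and without the first Day 0 library, the median log2 fold change of the 362 was -0.07, against -0.016 over all merged peaks. Without the first or the second Day 3 library it was -0.19 and -0.13, against -0.027 and -0.024. In each of these fits fewer of the 362, and fewer of all merged peaks, were called than in the main fit.

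From Day 3 to Day 7, more peaks fell than rose, and most that fell lay inside genes. In all, 137 of the 362 peaks changed with edgeR, of which 127 (35.1%) fell, against 17.4% of all merged peaks, and 10 (2.76%) rose, against 14.7%. The rule had left out peaks that rose over the calling line by Day 7, which the background had not, so the shares are not on equal terms. Of the 197 peaks inside genes 109 fell (55.3%, against 24.4% of all merged peaks inside genes) and 3 rose. Of the 26 convergent peaks 10 fell (38.5%, against 31.9% of all convergent ones) and 1 rose. Among the 95 tandem peaks 8 fell (8.42%, against 15.0%) and 4 rose, and among the 44 divergent peaks 0 fell (against 9.33%) and 2 rose. The background of rises over all merged peaks was 13.3% inside genes, 10.6% in convergent, 15.2% in tandem and 16.4% in divergent regions. Median log2 fold changes were -0.35 inside genes, -0.24 in convergent, -0.03 in tandem and -0.02 in divergent regions. Among the 122 peaks wholly inside a gene 86 fell (70.5%) and 1 rose. The other 44 merged peaks wholly inside a gene gave 24 falls (54.5%) and 2 rises.

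Loess normalization on abundance brought the share of falls close to the background. After it 64 of the 362 fell (17.7%, background 18.9%) and 51 rose (14.1%, background 18.5%), and 73 of the 137 were called again in the same direction. Inside genes 54 fell (27.4%, against 23.2% of all merged peaks inside genes) and 15 rose, and in convergent regions 7 fell (26.9%, against 29.1%) and 1 rose. In tandem regions 3 of 95 fell (3.16%, against 17.5%) and 24 rose, and in divergent regions 0 of 44 fell (against 13.2%) and 11 rose. The background of rises over all merged peaks was 17.6% inside genes, 12.8% in convergent, 19.5% in tandem and 19.2% in divergent regions. Of the 122 peaks wholly inside a gene 39 fell (32.0%) and 5 rose, a smaller share than the 23 falls (52.3%) among the other 44 such peaks. Of those 44, 4 rose. These differences between classes were not tested. With TMM, leaving out the first or the second Day 7 library reduced the calls among the 362 and among all merged peaks, and nearly all remaining calls among the 362 were falls. The median log2 fold change of the 362 was then -0.15 and -0.22, against 0.0007 and -0.0005 over all merged peaks.

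**Figure D5:**
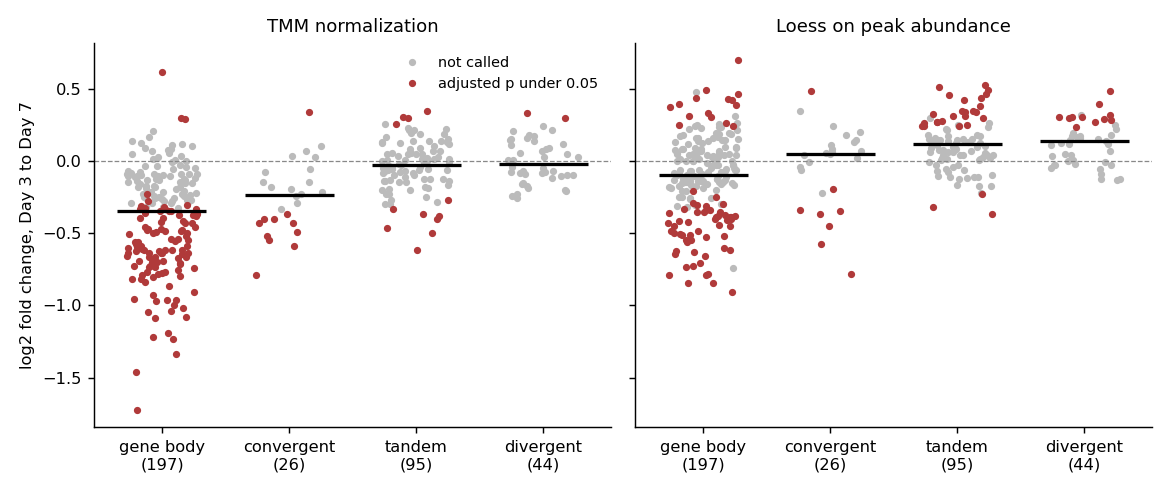
Log2 fold change from Day 3 to Day 7 (y axis) of each of the 362 peaks by placement (numbers in parentheses), from edgeR with TMM (left) and with loess offsets on peak abundance (right); red points passed an adjusted p of 0.05, and black lines are medians. Inside genes the median is -0.35 with TMM and -0.10 after loess, and in divergent regions it is -0.02 and 0.14.

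The largest falls from Day 3 to Day 7 were at YDR261C-D (log2 fold change -1.72, standard error 0.20, adjusted p = 1.12e-10 with edgeR), in the shorter FLO10 peak (-1.46, standard error 0.17, adjusted p = 1.04e-10) and in TIR4 (-1.34, standard error 0.14, adjusted p = 2.23e-12). After loess these were -0.74 (adjusted p = 0.0555, no longer called), -0.65 (adjusted p = 0.0145) and -0.91 (adjusted p = 0.000236). The YDR261C-D peak had the lowest mean normalized count of all merged peaks (196). Its libraries gave 305 and 158 (Day 3) and 70.8 and 71.6 (Day 7). With 1 library left out, its log2 fold change with TMM ranged from -2.11 to -1.14. The largest rise was at the start of BRE2, a subunit of the histone H3 lysine methyltransferase complex COMPASS (chromosome XII, 175135 to 175646), with a log2 fold change of 0.61, a standard error of 0.11 and an adjusted p of 3.81e-06 from edgeR. Counts were 784 and 516 (Day 0), 504 and 572 (Day 3), 853 and 779 (Day 7), 829 and 1033 (Day 10), and 986 and 727 (Day 28). Its Day 7 libraries were above both Day 3 libraries, and its Day 0 libraries spanned nearly the same range. The next largest rises were at ETP1 (0.35, adjusted p = 0.0123 with edgeR) and beside ILT1 (0.33, adjusted p = 0.018). Both calls were lost when single libraries were left out, with log2 fold changes from 0.26 to 0.44 and from 0.29 to 0.37. The edgeR calls given below for this interval at KIN3, MAD2, REV3, DBP8, DBP3, ATG9, ATG10 and ATG23 were likewise lost in at least 1 such fit.

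Genes for large cell wall and cell surface glycoproteins recurred among the peaks inside genes. These proteins have long serine- and threonine-rich stretches that carry O-linked mannose. This group was put together after the values were seen, from 17 gene names, and is given as a description without support from any test of the group. In the bodies of 8 of these genes lay 11 of the 362 peaks, of 14 merged peaks there in all: FLO10 (2 peaks), HPF1 (2), DAN4 (2), FLO5, FLO11, HKR1, SIM1 and TIR4. Their ratios of later over earlier counts ranged from 0.26 in HPF1 to 1.43 in TIR4, with a median of 0.79, and in 7 of the 11 all later libraries were above all earlier ones, as they were in 72 (59.0%) of the 122 members wholly inside a gene. All 11 fell from Day 3 to Day 7 with edgeR, as did 86 of those 122 (background of falls over all merged peaks 17.4%). After loess 10 did so, as did 39 of those 122 (background 18.9%), the exception being the DAN4 peak of 222 bp (adjusted p = 0.301).

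FLO5, a flocculin, shows the pattern in this group (chromosome VIII, 527815 to 528407, ratio 0.82). Normalized counts stood at 648 and 448 (Day 0), 685 and 749 (Day 3), 374 and 435 (Day 7), 846 and 1062 (Day 10), and 1226 and 806 (Day 28). Day 7 was lowest and the later libraries were highest, with no overlap. HKR1, a mucin-like sensor of osmotic stress (chromosome IV, 1307361 to 1307631, ratio 0.93), had a lower level. Its libraries held 309 and 234 (Day 0), 312 and 357 (Day 3), 160.1 and 173 (Day 7), 422 and 545 (Day 10), and 575 and 424 (Day 28). The order of the days was the same. The GC content of the 11 peaks ran from 41.6% to 49.3%. The median was 38.2% over the 362 peaks and 43.5% over the 122 of them wholly inside a gene. The part of GC content in the pattern was not tested. Flocculin genes are near-identical in places and differ between strains, so counts on the reference copy are uncertain, although no 100-base window of these peaks other than the HPF1 peak assigned to YOL155W-A (5.36% of windows) recurs in the reference.

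Between Day 10 and Day 28, none of the 162 peaks called on both days passed the test. The comparison was not free of the rule. These peaks had to pass the calling line on both days, so a peak that fell below it on either day was left out. Their median normalized count was 815 and 905 in the Day 10 libraries and 908 and 776 in the Day 28 libraries, so the days overlapped. The median log2 fold change was -0.07. With edgeR 0 of the 162 passed an adjusted p of 0.05 (background 0% of 3515 in either direction), and 1 had an unadjusted p under 0.05. Since no merged peak passed at all, the test cannot decide whether the 162 stayed the same between these days. DESeq2 called 0 as well, and its filter on low counts gave none of the 162 an adjusted p. The replicate differences on these days were the largest of the series for the 362 peaks, with a median absolute log2 difference of 0.21 on each, against 0.075 on Day 7.

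Genes of mitosis and of DNA repair were among those with a later-day peak. The gene lists used were chosen with earlier results of these data known, so their counts are a description. Of 47 genes of the spindle checkpoint and mitosis, 23 had an assigned peak and 7 of these peaks (30.4%) were among the 362, at KIN3, MPS1, ALK1, BUB1, MAD2, MAD3 and STU2. The share of the 362 in all merged peaks is 10.3%. The peak at the start of KIN3, a kinase of the NIMA family, had the highest ratio of the list (0.69; chromosome I, 171627 to 172043). Its normalized counts were 567 and 502 (Day 0), 555 and 452 (Day 3), 349.6 and 364 (Day 7), 709.8 and 815 (Day 10), and 859 and 622 (Day 28). All later libraries exceeded all earlier ones. STU2, a microtubule-binding protein, had a ratio of 0.59 with the same separation, while the checkpoint kinases BUB1 (0.08) and MPS1 (0.15) had ratios near 0.

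MAD2 and MAD3 encode checkpoint proteins that hold back anaphase until chromosomes are attached. The MAD2 peak (ratio 0.59; chromosome X, 387743 to 387948) lay inside the gene. The libraries gave 493 and 374 (Day 0), 429 and 351 (Day 3), 296 and 313 (Day 7), 540.1 and 650.0 (Day 10), and 586 and 492 (Day 28). The peak at the start of MAD3, with a ratio of 0.55, had 928 and 716 (Day 0), 794 and 770.2 (Day 3), 654 and 676 (Day 7), 1010.3 and 1249.6 (Day 10), and 1249 and 921 (Day 28). In both genes the later libraries overlapped the first Day 0 library only. From Day 3 to Day 7, 3 of the 7 peaks fell with edgeR, against 35.1% of the 362 and 17.4% of all merged peaks. None rose, against 2.76% and 14.7%. The same shares stand beside the lists that follow. The 3 were ALK1 (-0.52, adjusted p = 4.43e-05), whose peak lies at the end of the neighbouring STT3, KIN3 (-0.50, adjusted p = 0.00151) and MAD2 (-0.36, adjusted p = 0.0341). After loess only ALK1 was called of these (adjusted p = 0.00109). Another member covers the end of ESP1, the separase, and was assigned to ASK10.

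Of 60 genes of the DNA damage response and repair, 25 had a peak, and 9 of their 26 peaks (34.6%) were among the 362. They were assigned to RAD18, DUN1, RAD9, MSH1, SLX4, OGG1, PMS1, DDC1 and REV3. OGG1, which encodes the glycosylase that removes oxidized guanine and faces PIF1 across a divergent promoter, had a peak called on Day 28 alone with a ratio of 0.58. Counts were 505 and 361 (Day 0), 427 and 334 (Day 3), 322 and 348 (Day 7), 546 and 623 (Day 10), and 653 and 466 (Day 28). Only the second Day 28 library fell within the earlier range. The RAD18 peak (0.71) in fact lies inside the neighbouring SED4, and it fell from Day 3 to Day 7 (-0.73, adjusted p = 7.6e-07 with edgeR), whereas REV3, a subunit of translesion polymerase zeta, rose (0.33, adjusted p = 0.00815). The other 7 did not pass that test.

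Of 18 nucleolar RNA helicase genes, 8 had a peak and 4 of these were among the 362: DBP8, ROK1, DBP3 and SPB4. These helicases act in ribosome assembly. DBP8 had the highest ratio (0.77; chromosome VIII, 441792 to 442586), and its peak covers the start of the gene and the end of MTG2. Normalized counts stood at 1008 and 821 (Day 0), 939 and 893 (Day 3), 685 and 764 (Day 7), 1326 and 1609 (Day 10), and 1560.2 and 1332 (Day 28). The later libraries were all higher than the earlier ones, as they were for ROK1 (ratio 0.64). DBP8 (-0.34, adjusted p = 0.00482) and DBP3 (-0.41, adjusted p = 0.00853) fell from Day 3 to Day 7 with edgeR, and DBP3 was no longer called after loess (adjusted p = 0.245).

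The remaining lists gave from 0 to 4 peaks of the set each. Among 62 meiosis and sporulation genes 4 of 21 peaks did (SPR28, DIT2, SPR3 and SPR1), with ratios from -0.08 to 0.31. Autophagy genes gave 3 of 24 peaks, of which those assigned to ATG10 (-0.54, adjusted p = 0.000179) and ATG23 (-0.64, adjusted p = 2.95e-05) fell from Day 3 to Day 7 with edgeR and that of ATG9 (0.29, adjusted p = 0.0409) rose; the ATG23 peak lies in the last part of SEN1. Hexose transporter genes gave 2 of 12 peaks (HXT10 and HXT8, ratios 0.26 and 0.30), nuclear pore genes 2 of 15 (NUP145, 0.44, and NUP85, 0.36), and the galactose network, the target of the selection, 0 of 5.

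A few peaks were assigned to tRNA genes or lay at transposons. The highest ratio among them, 0.90, belonged to a peak with its midpoint in the end of KOG1 (chromosome VIII, 476275 to 476738). This peak was assigned to tV(CAC)H, a valine tRNA gene that starts 728 bp from that midpoint. Its libraries held 510.3 and 361 (Day 0), 443 and 533 (Day 3), 274 and 299.7 (Day 7), 671 and 815 (Day 10), and 852 and 675 (Day 28). All later libraries were above the earlier ones. Its Day 3 to Day 7 fall (-0.76, adjusted p = 4.15e-06 with edgeR) held after loess (-0.42, adjusted p = 0.0209). The others were 2 peaks assigned to tE(UUC)E3 (ratios 0.11 and 0.49), 1 each to tW(CCA)G1 (0.25) and tI(AAU)I2 (0.60, inside the transposon gene YIL082W-A), and 1 beside the small nucleolar RNA gene snR54 (0.15). Of the 362, 3 overlapped a long terminal repeat (0.829%, against 4.81% of all merged peaks) and 13 an annotated replication origin (3.59%, against 6.77%). Shorter peaks have less room to overlap such features, and the 362 had a median of 324.5 bp against 868 bp. Among the 71 peaks called on no later day, with a median of 261 bp, the shares were 1.41% and 5.63%. The part of length in these shares was not tested.

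Several of the peaks were neighbours. Those less than 1000 bp apart included the FLO10 and HPF1 pairs, a pair in CLA4, a kinase of budding and polarity (ratios 0.93 and 0.75), one in the convergent genes MRX6 and RIM21 (0.89 and 0.76), one at JAC1 and ATE1 (0.61 and 0.38) and one at ASK10 and ESP1 (0.33 and 0.60). The first CLA4 peak, on chromosome XIV from 70248 to 70598, had 413 and 347 (Day 0), 413 and 494 (Day 3), 183 and 212 (Day 7), 509 and 747 (Day 10), and 787 and 569.6 (Day 28). It fell from Day 3 to Day 7 (-1.19, adjusted p = 1.85e-10 with edgeR). The libraries of Day 7 were lowest and the later ones highest in it.

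The longest and the most abundant peaks of the set were mostly at gene ends. The longest, 1376 bp, spans the convergent ends of PMT3, a protein O-mannosyltransferase, and LDB19, and also had the highest mean count (chromosome XV, 917669 to 919044, ratio 0.70). Its normalized counts were 1482 and 1206 (Day 0), 1409 and 1379 (Day 3), 822 and 781 (Day 7), 1768 and 2127 (Day 10), and 2008 and 1736 (Day 28). Day 7 was far below the other days, with a log2 fold change from Day 3 of -0.79 (adjusted p = 9.36e-13 with edgeR) that loess left at -0.78. The peak over the ends of HOM6, an enzyme of homoserine synthesis, and IML1 (1204 bp, ratio 0.81) fell by 0.77 and the one at the end of TDH3, the main glyceraldehyde phosphate dehydrogenase (717 bp, ratio 0.42), fell by 0.59 on the log2 scale in the same interval. The peak at YLR146W-A, the other long one (1097 bp, ratio 0.55), covers the starts of SPE4 and SMD3. The ALD2 promoter peak, also among the most abundant, had a ratio of 0.06. The shortest peaks were at VFA1 (167 bp), MRX6 (169 bp) and tE(UUC)E3 (170.0 bp).

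Motif shares were counted in the 362 peaks and, in parentheses, in all merged peaks, and the differences were not tested. In the central 200 bases, on either strand, 24.3% of the 362 peaks held TATAAA (26.7% of all merged peaks), 14.6% a run of AAAAAAAA (16.1%), 13.8% the stress element AGGGG (16.4%), 14.4% the sporulation element CACAAA (11.6%) and 3.04% the cell cycle element ACGCGT (2.59%). For the general factors that keep promoters open, TTACCCG of Reb1 was present in 1.93% (4.38%), ACACCCA of Rap1 in 1.93% (1.85%) and the Abf1 motif in 1.93% (2.50%). TGACTCA of Gcn4 was present in 1.66% (1.85%) and the Gal4 motif in 1.10% (1.31%). No overlap between these motifs was removed, and a match is not evidence of binding. Of the sequences printed above only that of OGG1 holds any of them, CACAAA before and TATAAA just after the first codon.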

How the data were processed

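ATAC-seq libraries of 5 days, 2 per day, were used. The authors trimmed reads with Trim Galore 0.5.0, mapped them with Bowtie2 2.2.9 to R64 (sacCer3), called peaks per day with MACS2 2.1.1, merged them with BEDTools 2.30.0 and annotated them with HOMER. The deposited raw counts per merged peak come from featureCounts 1.6.3. The deposited normalized counts are a signal equal to these counts divided by 1 size factor per library. Peak positions are on R64. Removal of duplicate or multiply mapped reads is not given in the sources used here.

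The members and gene lists were chosen with earlier results of these data known. Consecutive earlier days, and Day 10 against Day 28, were compared on raw counts with edgeR 4.0.16 (R 4.3.3; TMM, filterByExpr, which removed no peak, quasi-likelihood test, Benjamini-Hochberg adjustment over all 3515 peaks, threshold 0.05), each comparison being fitted on its own 4 libraries. Peaks were placed, and sequences and motifs read, from the RefSeq annotation and genome of R64; 342 of the 362 members have an assigned gene in RefSeq, and other names are those of the files. A total of 1 peak name, not a member's, is cut short in the count files and was matched by its unique start. Named peaks are those with the 4 highest and 2 lowest ratios per call class and the 3 largest tested rises and falls without replicate overlap. Members of the gene lists, and those assigned or annotated to tRNA or small nucleolar RNA genes or lying at transposons, are also named. So are those at the extremes of length and level, or less than 1000 bp from another member. ORC3 and the cell wall protein genes were chosen after their values were seen. Alternatives were DESeq2 1.42.0, other normalizations including loess on abundance (span 0.3), filters, a joint fit and each library left out. On data simulated for Day 0 to Day 3, with 200 of 3515 peaks changed by 0.5 on the log2 scale, edgeR recovered 101 with 4 false calls. The simulation gave all peaks the same extra spread between libraries and no shift with abundance. In the data the log2 fold change correlated with abundance (Pearson 0.64 over all merged peaks), so the simulated error does not cover that shift.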

Additional observations from a re-analysis of the deposited data

How the results depend on the processing

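For Day 0 to Day 3, 24 members were called, with 653 calls over all merged peaks. DESeq2 called 38 members (891 over all), scaling by total counts 38 (1062) and loess on abundance 15 (461). A minimum absolute log2 fold change of 0.5 left 4 (110). Leaving out 1 library reduced the calls in most fits, among members and among all merged peaks. The median log2 fold change of -0.14 became -0.34 with total counts and 0.012 after loess, and ranged from -0.22 to -0.07 with 1 library left out. For Day 3 to Day 7, against 137, a joint fit of all 10 libraries called 88 and the fold minimum left 79, with 70 to 178 when 1 library was left out. The median of -0.18 became 0.022 after loess, and ranged from -0.22 to -0.14 with 1 library left out. The 150 members with all later above all earlier libraries became 60 after loess and 150 to 230 with 1 library left out; the median ratio of 0.42 became 0.64 with total counts and 0.095 after loess, and 0.37 to 0.47 with 1 library left out. The cause of these shifts was not tested. A match to any of the 10 motifs was present in 55.2% of members in the central 200 bases and in 71.8% over the whole peak, which gives longer sequences more room. The promoter share of 56.6% was 53.9% by RefSeq gene starts. Between Day 10 and Day 28 the count of called members was 0 under each alternative that kept all libraries, also with a replicate block on the primed and unprimed labels (0). The differences between the primed and unprimed libraries of these days went in opposite directions over all merged peaks (correlation -0.67). That value does not show whether the labels pair the libraries. No paired analysis was possible for the other comparisons because their libraries share no labels. There were 2 libraries per day, and the shallowest library held 4748625 counts. The parts of replicate spread and of depth in the limits of these values were not tested.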
